A study of Homo sapiens with 12 samples.

Results

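The matricellular genes described here encode 10 secreted proteins of the extracellular matrix: the CCN family members CCN1 to CCN5, the thrombospondins THBS1 and THBS2, SPARC, periostin (POSTN) and tenascin C (TNC). They were selected by gene symbol, and 10 of 10 were found among the 16383 genes of the deposited table. RNA had been sequenced in 12 poly(A) libraries of IMR90, an established line of human lung fibroblasts that the labels give as wild type, in 4 groups of 3. Proliferating cells had no treatment. The other 3 groups had received 20 Gy of ionizing radiation over 10 min, which induces senescence, a lasting exit from the cell cycle with an altered secretion. They were then given DMSO (the solvent), 2 µM palbociclib, which blocks the cell-cycle kinases CDK4 and CDK6, or 2 µM ruxolitinib, an inhibitor of the Janus kinases JAK1 and JAK2. The inhibitors were added on days 4, 6, 8 and 10 after irradiation and harvest of the irradiated groups was on day 11. No group of proliferating cells with an inhibitor is among the samples, and the harvest day of the proliferating cells is not given in the sources used here. All samples are 1 cell line, and nothing in the labels says that replicates came from separate cultures, so p-values measure the spread between these libraries, which may be technical.

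Matricellular proteins are secreted into the matrix but serve mainly as signals rather than as load-bearing fibres: they bind integrins, heparan sulfate proteoglycans, growth factors and collagens, and change how a cell adheres and responds. CCN1 and CCN2 are widely used readouts of the transcriptional coactivators YAP and TAZ, which act through the DNA-binding TEAD factors, and CCN2, THBS1, POSTN and TNC also respond to TGF-beta. In fibroblasts several of these genes rise during wound repair and fibrosis, and CCN1 is known to drive fibroblasts into senescence when it accumulates in healing wounds.

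Promoters of CCN1, CCN3, CCN4 and CCN5 are not described, and their absence here says nothing about whether RefSeq lists them. The motif counts per gene therefore leave out CCN1, which rose with palbociclib, and CCN3, which fell. RefSeq (GRCh38.p14) promoter sequences were used for 6 of the 10 genes, namely CCN2, THBS1, THBS2, SPARC, POSTN and TNC. Of these, 4 are printed as examples: CCN2, THBS1 and THBS2 of the genes that rose with palbociclib, as SPARC also did, and POSTN of those that fell, as TNC also did. Each is the 250 bases upstream of the annotated start, 5′ to 3′ in the direction of transcription, with motif matches in capitals.
CCN2, chr6:131951373-131951622, minus strand: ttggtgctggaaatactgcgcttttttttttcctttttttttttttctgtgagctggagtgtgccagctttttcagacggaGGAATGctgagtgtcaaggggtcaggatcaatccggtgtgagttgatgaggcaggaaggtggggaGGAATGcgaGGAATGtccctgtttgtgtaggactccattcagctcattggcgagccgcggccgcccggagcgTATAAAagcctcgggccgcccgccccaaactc
THBS1, chr15:39580829-39581078, plus strand: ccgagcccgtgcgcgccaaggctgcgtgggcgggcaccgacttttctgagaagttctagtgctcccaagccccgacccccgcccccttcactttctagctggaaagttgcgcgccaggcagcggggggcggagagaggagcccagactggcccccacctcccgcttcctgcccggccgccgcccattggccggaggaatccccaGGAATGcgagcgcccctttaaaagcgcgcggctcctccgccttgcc
THBS2, chr6:169253847-169254096, minus strand: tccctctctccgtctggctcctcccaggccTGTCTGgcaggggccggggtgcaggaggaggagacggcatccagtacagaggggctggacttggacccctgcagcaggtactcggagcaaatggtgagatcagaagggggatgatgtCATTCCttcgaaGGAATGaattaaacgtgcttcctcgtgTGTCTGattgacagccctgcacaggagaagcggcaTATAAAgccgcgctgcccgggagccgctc
POSTN, chr13:37598769-37599018, minus strand: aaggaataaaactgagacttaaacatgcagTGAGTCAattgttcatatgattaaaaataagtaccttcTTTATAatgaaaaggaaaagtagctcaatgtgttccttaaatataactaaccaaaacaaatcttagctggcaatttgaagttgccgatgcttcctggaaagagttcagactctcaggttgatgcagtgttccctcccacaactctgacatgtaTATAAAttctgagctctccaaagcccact
Both strands were searched for 5 motifs. The TEAD motif was taken as GGAATG. The AP-1 motif was taken as TGANTCA and the SMAD motif as CAGACA. The TATA box was taken as TATAAA, and the SRF site as the CArG box. The TEAD motif or its reverse complement stood 3 times in CCN2, 2 times in THBS2 and 1 time each in THBS1 and SPARC, and was not in the windows of POSTN and TNC. The capitals in CCN2 are the 3 TEAD matches, at -169, -104 and -95 relative to the start, and a TATA box. In THBS1 the match began at -46, and in THBS2 the pair began at -103 and -91. THBS2 also held 2 SMAD matches and a TATA box. The capitals in POSTN are an AP-1 match at -220 and 2 TATA matches, 1 of them on the opposite strand. TNC held 1 SMAD match, and no CArG box was in the 6 windows. Among all 35116 promoter windows of this length, 11.9% held the TEAD motif, 6.57% the AP-1 motif, 13.6% the SMAD motif, 10.7% the TATA box and 1.16% the CArG box. No match of 1 motif overlapped a match of another. A match is a run of letters and not evidence of binding. Over the tested genes with a listed promoter, the TEAD motif was in 9.62% of those that rose with palbociclib, 9.82% of those that fell and 9.47% of those not called. The AP-1 motif was in 3.54%, 5.24% and 3.56% of the same groups, the TATA box in 4.62%, 7.70% and 5.03%, and the SMAD motif in 9.70%, 10.5% and 9.13%. These shares are descriptions and were not tested.

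Values are normalized counts, that is reads per gene divided by the authors' size factor for the library. The listed genes held 14106799 to 21762412 reads per library. Scaling every library to the same total instead would move the median of all genes by 0.23 (log2) for DMSO against proliferating cells, and by -0.23 for palbociclib against DMSO. Fibroblast markers were high in all groups (8 of 8 listed, summed to 808747 to 841257 normalized counts in proliferating, 394142 to 405122 in DMSO, 624453 to 654829 in palbociclib and 500789 to 504568 in ruxolitinib libraries). Of the markers of other cells, 5 of 7 epithelial, 4 of 7 endothelial, 4 of 6 immune and 1 of 5 smooth muscle or pericyte genes averaged under 10. Epithelial markers summed to at most 116 in any library. The endothelial list summed to 1719 to 1963 in proliferating, 2406 to 2573 in DMSO, 3505 to 4381 in palbociclib and 2267 to 2273 in ruxolitinib libraries, nearly all of it TEK, while CDH5, which defines endothelial cells, was at 2.71 or less. The immune list summed to 543.7 to 569.6, 1224 to 1308, 697 to 806 and 1069.7 to 1149 in the same order, nearly all of it CD68, while CD3E and MS4A1 were at 2.71 or less and PTPRC at 9.90 or less. The smooth muscle and pericyte list summed to 7517 to 8333, 4329.55 to 4463, 5063 to 5620.1 and 4605 to 4734, with MYH11 at 2.19 or less. Nearly all of that sum was CSPG4 and NOTCH3. In the same order CSPG4 averaged 5520, 2513, 2452 and 2401, and NOTCH3 2175, 1689, 2818 and 2038. The part of these markers in the results was not tested. In bulk RNA, fewer cells with a transcript and less of it per cell cannot be told apart.

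Of the 10 genes, 9 passed the filter of a mean of at least 10 normalized counts and were tested with limma over all 11242 genes that passed, at an adjusted p under 0.05. Each gene had 1 spread shared over the 4 groups, so a p-value also depends on libraries outside the groups compared. After irradiation 8 fell and 1, CCN3, rose, against 72.4% of all tested genes called in that comparison (39.3% called lower and 33.0% higher). With palbociclib, compared with DMSO, THBS2, CCN2, SPARC, THBS1 and CCN1 rose, POSTN, TNC and CCN3 fell, and CCN4 was not called. That is 8 of 9, where 48.3% of all tested genes were called (26.0% higher and 22.3% lower). With ruxolitinib 2 of 9 were called, SPARC higher and CCN4 lower, where 4.52% of all tested genes were called (1.10% higher and 3.42% lower). The members' median log2 fold change was -0.69 after irradiation, 0.29 with palbociclib and 0.06 with ruxolitinib, beside -0.05, 0.02 and -0.00280 over all tested genes. Groups did not overlap for 9, 8 and 8 of the 9 members in these comparisons, beside 75.1%, 54.8% and 31.9% of all tested genes. With every library at the same total, 64.0% of all calls after irradiation were higher, against 45.7% as deposited, and 15.4% of all calls with palbociclib, against 53.9%. At the same upper quartile these shares were 58.1% and 41.7%. No called member changed direction under that scaling or at the same upper quartile. Fold changes are on the scale of log2(value + 1).

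**Figure D1:**
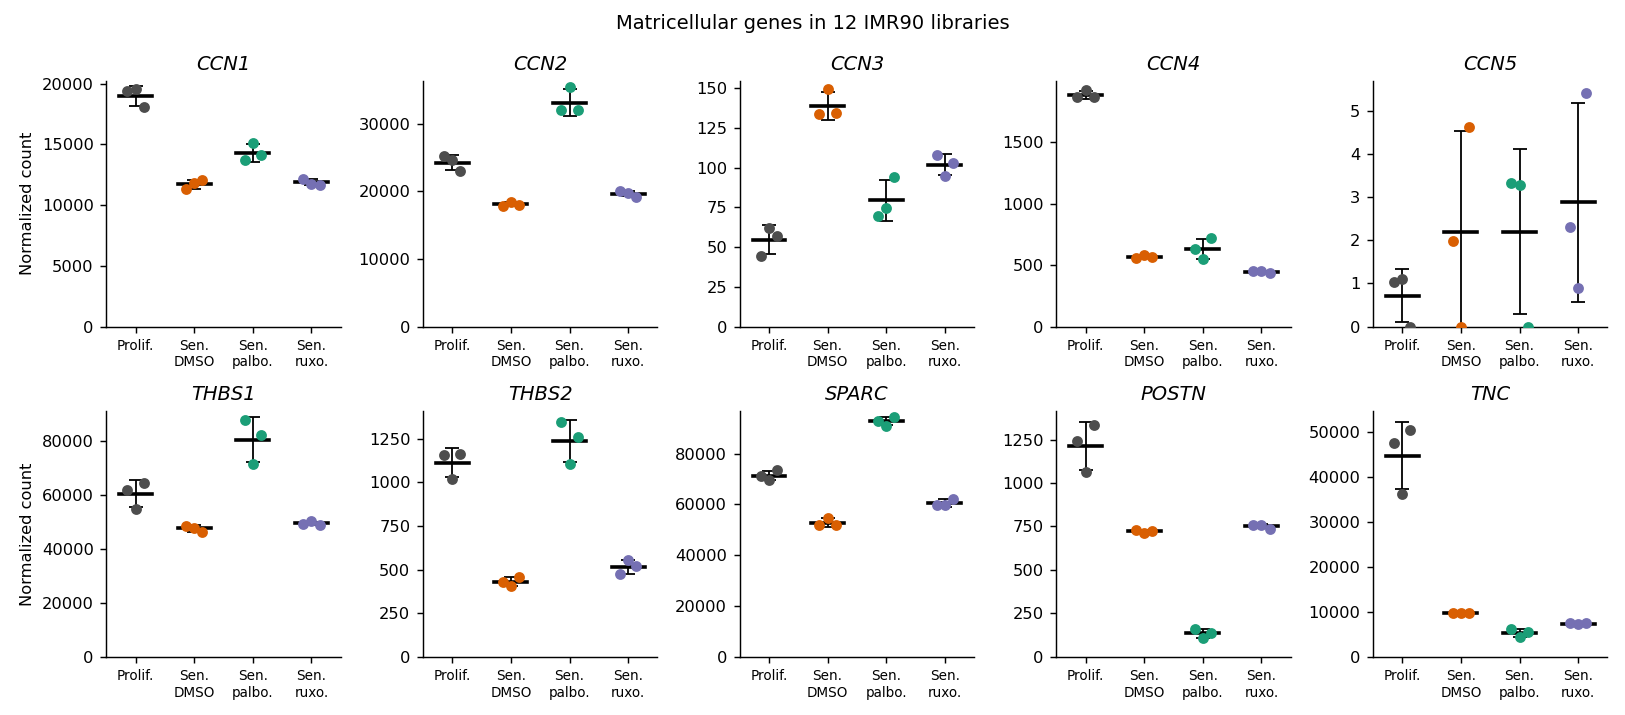
Normalized counts of the 10 genes (y axis from 0, a separate scale per gene) in proliferating cells and in senescent cells given DMSO, palbociclib or ruxolitinib; points are libraries, horizontal lines the mean and whiskers the SD of 3. CCN2, THBS1 and SPARC are highest with palbociclib, POSTN and TNC are lowest there, and CCN5 stays under 6 in every library.

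CCN1 and CCN2 are the founding members of the CCN family, cysteine-rich adhesion signals that bind integrins and heparan sulfate. Below, the 3 values of a group stand in the order of the library numbers, A125 to A127 for proliferating cells, A116 to A118 for DMSO, A119 to A121 for palbociclib and A122 to A124 for ruxolitinib. CCN2 (Entrez gene 1490) measured 25247, 24598 and 22999 normalized counts in proliferating cells and 17891, 18495 and 18019 with DMSO. It measured 32027, 35476 and 31996 with palbociclib and 20007, 19775 and 19227 with ruxolitinib. No group overlapped another, and every palbociclib library stood above every proliferating library. CCN2 fell 1.34-fold after irradiation (log2 fold change -0.42, SE 0.05, limma adjusted p 3.50e-06) and rose 1.83-fold with palbociclib (0.87, SE 0.05, adjusted p 4.96e-09). In palbociclib cells it was 1.37-fold higher than in proliferating cells (0.45, SE 0.05, adjusted p 1.53e-06). The ruxolitinib difference from DMSO was 0.12 with a 95% interval of 0.00 to 0.23 and was not called over all genes (adjusted p 0.302), although the fit of only these groups called it (adjusted p 0.00672).

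CCN1 (3491) measured 19357, 19528 and 18047 in proliferating cells and 11322, 11803 and 12034 with DMSO. The palbociclib libraries held 13680.3, 15109.7 and 14092 and the ruxolitinib libraries 12149, 11773 and 11685. Proliferating libraries were the highest, palbociclib libraries lay between them and DMSO, and ruxolitinib overlapped DMSO. CCN1 fell 1.62-fold after irradiation (log2 fold change -0.69, SE 0.05, adjusted p 6.52e-09) and rose 1.22-fold with palbociclib (0.29, SE 0.05, adjusted p 0.000325), still 1.33-fold below proliferating cells (-0.41, adjusted p 2.73e-06). The rise with palbociclib rests on the scaling: at the same total it was 0.06 (adjusted p 0.366). The ruxolitinib difference was 0.02 (95% interval -0.09 to 0.13, adjusted p 0.920).

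CCN4 (8840), also known as WISP1 and induced by WNT signals, measured 1866, 1925 and 1867 in proliferating cells and 558.3, 586 and 566.6 with DMSO. With palbociclib it measured 631.9, 550.6 and 717.7 and with ruxolitinib 452.1, 451.1 and 437.6. It was the CCN gene with the largest change after irradiation, 3.30-fold lower with no overlap (log2 fold change -1.72, SE 0.08, adjusted p 1.88e-11). Palbociclib and DMSO overlapped, at a difference of 0.14 (95% interval -0.02 to 0.31, adjusted p 0.143). Without library A120, the lowest of the palbociclib libraries, the difference was 0.24 and was called (adjusted p 0.00752), and at the same total it was -0.08 (adjusted p 0.387). CCN4 was lower with ruxolitinib than with DMSO (-0.35, SE 0.08, adjusted p 0.0161), and all 3 ruxolitinib libraries lay below all 3 DMSO libraries. That call was lost when any of A117, A118, A122, A123 or A124 was left out (adjusted p 0.0563 to 0.0784), while the difference stayed between -0.37 and -0.33.

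CCN3 (4856), also known as NOV and described as opposing CCN2 in several cell types, changed in the opposite direction to CCN1 and CCN2 both after irradiation and with palbociclib. It measured 44.6, 62.1 and 57.1 in proliferating cells and 133.6, 149.2 and 134.1 with DMSO, a 2.54-fold rise (log2 fold change 1.34, SE 0.15, adjusted p 8.89e-07). With palbociclib it measured 69.7, 74.4 and 94.2, a 1.75-fold fall (-0.81, SE 0.15, adjusted p 0.000448), and remained above proliferating cells (0.53, SE 0.15, adjusted p 0.00491). The ruxolitinib libraries held 108.0, 94.5 and 102.9. They all lay below DMSO, at -0.45 with a 95% interval of -0.77 to -0.12, which was not called over all genes (adjusted p 0.131) and was called when only these groups were fitted (adjusted p 0.0107). The order of the groups was therefore the reverse of that of CCN1 at its ends, with DMSO highest and proliferating cells lowest. CCN5 (8839), which lacks the C-terminal domain of the other CCN proteins, had 0 to 6 reads per library and 24 in all 12. It failed the filter and no difference was detectable at this depth. CCN6, a relative outside the selection, had at most 2 reads in any library.

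THBS1 (7057) encodes thrombospondin 1, which activates latent TGF-beta and restrains vessel growth through its receptors CD36 and CD47. It measured 62086, 54874 and 64533 in proliferating cells and 48742, 47915 and 46417 with DMSO. With palbociclib it measured 88041, 71585 and 82540.5 and with ruxolitinib 49461, 50303 and 48972. Every palbociclib library was above every other library. THBS1 rose 1.69-fold with palbociclib (log2 fold change 0.75, SE 0.07, adjusted p 9.39e-07) and was 1.33-fold above proliferating cells (0.41, SE 0.07, adjusted p 0.000114). It was 1.27-fold lower after irradiation (-0.34, SE 0.07, adjusted p 0.000695), a call lost at the same total (-0.11, adjusted p 0.168). The ruxolitinib difference was 0.06 (95% interval -0.10 to 0.21, adjusted p 0.786), although the 3 ruxolitinib libraries stood just above the 3 DMSO libraries.

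THBS2 (7058) encodes thrombospondin 2, which regulates collagen fibril assembly and matrix metalloproteinase 2. Its proliferating values were 1159, 1020.3 and 1164, and its DMSO values 428.6, 406.1 and 456.7. Palbociclib gave 1348, 1105.6 and 1261, and ruxolitinib gave 476.1, 554.7 and 518.8. Palbociclib libraries overlapped proliferating ones, and both lay far above DMSO and ruxolitinib. THBS2 fell 2.58-fold after irradiation (log2 fold change -1.37, SE 0.08, adjusted p 8.11e-10) and rose 2.87-fold with palbociclib, the largest increase among the members (1.52, SE 0.08, adjusted p 1.65e-09). The remaining difference between palbociclib and proliferating cells was 0.15 (95% interval -0.03 to 0.33, adjusted p 0.122). It was called without A120 (0.23, adjusted p 0.0196), at the same upper quartile (0.24, adjusted p 0.0132), and by edgeR (0.19, adjusted p 0.0428) and DESeq2 (0.19, adjusted p 0.0460) on the recovered reads. With ruxolitinib the difference from DMSO was 0.26 (95% interval 0.08 to 0.44) and was not called (adjusted p 0.109), except when only these groups were fitted (adjusted p 0.00890) or A120 was left out (adjusted p 0.0438).

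SPARC (6678) encodes a collagen-binding glycoprotein of bone and healing tissue that guides the assembly of fibrillar collagen. It measured 71202, 69462 and 73355 in proliferating cells and 52019.9, 54684 and 51718 with DMSO. With palbociclib it measured 92968, 90995.5 and 94378 and with ruxolitinib 59634, 59757 and 62151. The 4 groups did not overlap, in the order palbociclib, proliferating, ruxolitinib and DMSO, and each neighbouring pair was called. The call between ruxolitinib and proliferating cells was lost at the same total (-0.03, adjusted p 0.54) and at the same upper quartile (-0.07, adjusted p 0.21). SPARC fell 1.35-fold after irradiation (log2 fold change -0.43, SE 0.05, adjusted p 1.26e-06) and rose 1.76-fold with palbociclib (0.81, SE 0.05, adjusted p 5.36e-09), to 1.30-fold above proliferating cells (0.38, SE 0.05, adjusted p 5.21e-06). It was 1.15-fold higher with ruxolitinib than with DMSO (0.20, SE 0.05, adjusted p 0.0358). That call was lost when any of 8 libraries was left out, namely A125, A121 and the 6 libraries of the groups compared (adjusted p 0.0513 to 0.188).

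At the same total, the decreases after irradiation were smaller, at -0.47 for CCN1, -0.19 for CCN2 and -0.20 for SPARC, and at the same upper quartile they were -0.27 for CCN2, -0.19 for THBS1 and -0.28 for SPARC. All of these were still called.

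POSTN (10631) encodes periostin, a secreted protein that binds integrins and helps to crosslink collagen, with high expression in fibrotic lung. It measured 1239.9, 1062 and 1335 in proliferating cells and 726.5, 713.8 and 723.9 with DMSO. With palbociclib it measured 159.4, 110.6 and 135.0, and with ruxolitinib 756.9, 760.9 and 737.2. The palbociclib libraries were the lowest by a wide margin, at 11.1% of the proliferating mean, and the ruxolitinib libraries lay just above DMSO. POSTN fell 1.67-fold after irradiation (log2 fold change -0.74, SE 0.11, adjusted p 1.49e-05) and a further 5.37-fold with palbociclib, the largest decrease among the members (-2.43, SE 0.11, adjusted p 1.47e-10). The ruxolitinib difference was 0.06 (95% interval -0.17 to 0.29, adjusted p 0.860). A direct comparison put palbociclib 5.60-fold below ruxolitinib (-2.48, SE 0.11, adjusted p 1.64e-10).

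TNC (3371) encodes tenascin C, a large hexameric glycoprotein that loosens cell adhesion and is made in development, wounds and tumours. It measured 47404, 36273 and 50461 in proliferating cells and 9717, 9642 and 9717 with DMSO. With palbociclib it measured 6077, 4389.6 and 5474, and with ruxolitinib 7427, 7303 and 7404. The 4 groups did not overlap, in the order proliferating, DMSO, ruxolitinib and palbociclib. TNC had the largest decrease among the members after irradiation, 4.57-fold (log2 fold change -2.19, SE 0.11, adjusted p 7.07e-11), and fell a further 1.84-fold with palbociclib (-0.88, SE 0.11, adjusted p 1.21e-05). The ruxolitinib difference of -0.39 (95% interval -0.63 to -0.16) missed the threshold (adjusted p 0.0578). It was called by edgeR (adjusted p 0.0498) and DESeq2 (adjusted p 0.0123), at the same total (adjusted p 0.0311), at the same upper quartile (adjusted p 0.0495), when only these groups were fitted (adjusted p 6.80e-11) and without A126, A127, A119 or A120 (adjusted p 0.00788 to 0.0432). Palbociclib was lower than ruxolitinib (-0.49, SE 0.11, adjusted p 0.00260).

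**Figure D2:**
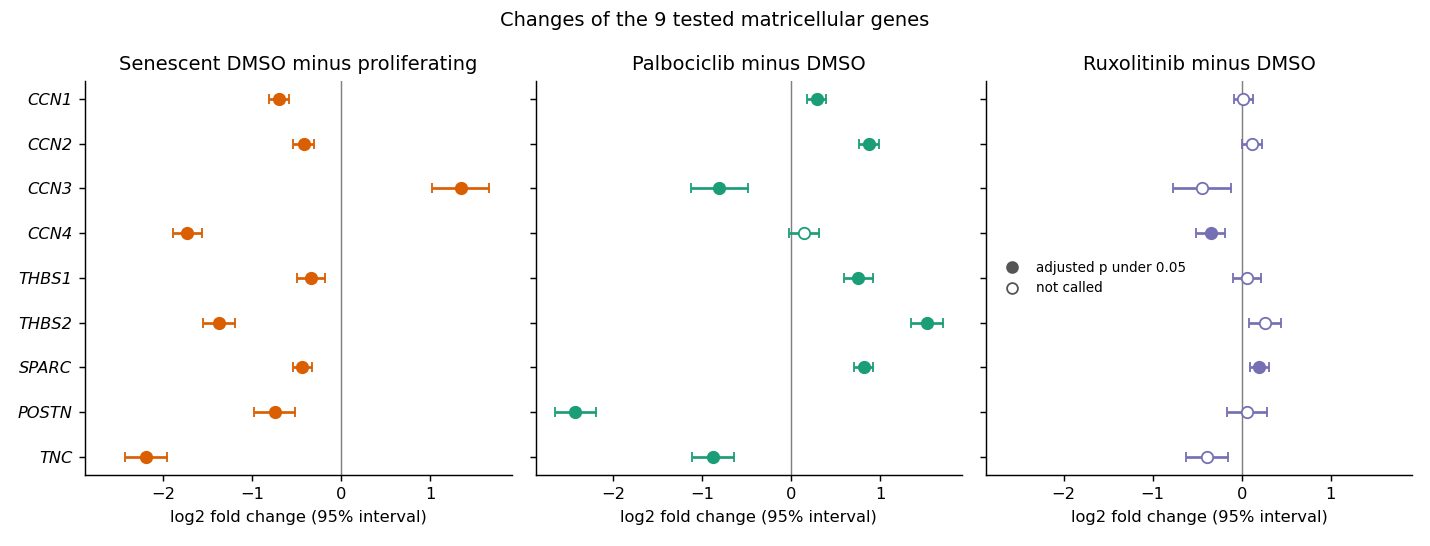
Log2 fold change of the 9 tested genes (points) with 95% intervals (whiskers) for senescent DMSO minus proliferating cells, palbociclib minus DMSO and ruxolitinib minus DMSO; filled points passed an adjusted p under 0.05 and open points did not. CCN3 is the only increase in the first panel, THBS2 and POSTN are the extremes of the second at 1.52 and -2.43, and in the third every point lies between -0.45 and 0.26.

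The inhibitors were given at the same dose and on the same days, so they were also compared directly. Palbociclib was higher than ruxolitinib for CCN1, CCN2, CCN4, THBS1, THBS2 and SPARC and lower for POSTN and TNC. These are 8 of 9 members, where 40.4% of all tested genes were called (22.8% higher and 17.6% lower), and 9 of 9 did not overlap, where 51.8% of all tested genes did not. Of all calls here 56.4% were higher, but 15.8% with equal totals and 38.7% with equal upper quartiles. The largest differences upward were in THBS2 (log2 fold change 1.26, SE 0.08, adjusted p 2.02e-08), CCN2 (0.75, SE 0.05, adjusted p 3.73e-08) and THBS1 (0.70, SE 0.07, adjusted p 2.92e-06). CCN4 differed by 0.49 (adjusted p 0.000135), and by 0.29 at the same total. CCN1 differed by 0.27 (adjusted p 0.000738), a call lost at the same total (0.07, adjusted p 0.324). CCN3 differed by -0.36 (95% interval -0.69 to -0.04) and was not called over all genes (adjusted p 0.0669), but was called by edgeR (adjusted p 0.0444), at the same total (-0.56, adjusted p 0.00708), at the same upper quartile (adjusted p 0.0345), and without A125 (adjusted p 0.0454) or A121 (adjusted p 0.0268). Against proliferating cells, palbociclib cells had 4 members higher (CCN2, CCN3, THBS1 and SPARC) and 4 lower (CCN1, CCN4, POSTN and TNC), where 73.8% of all tested genes were called (35.2% higher and 38.6% lower), and 8 did not overlap (70.9% of all tested genes). Ruxolitinib cells had CCN3 higher and the other 8 lower, where 72.2% were called (32.6% higher and 39.5% lower), and 9 did not overlap (76.2% of all tested genes). Of all calls between ruxolitinib and proliferating cells 45.2% were higher, but 61.6% with equal totals and 58.8% with equal upper quartiles. The smallest of these decreases were CCN2 at -0.30, THBS1 at -0.28 and SPARC at -0.24, and their calls were lost at the same total (-0.10, -0.08 and -0.03). Those of THBS1 (-0.11, adjusted p 0.141) and SPARC (-0.07, adjusted p 0.21) were also lost at the same upper quartile. These 6 comparisons share groups, so their values are not independent.

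Ratios of 2 genes within a library do not depend on the size factor, and they show that the members changed unequally. CCN2 to CCN1 was 1.28 ± 0.02 in proliferating, 1.55 ± 0.04 in DMSO, 2.32 ± 0.04 in palbociclib and 1.66 ± 0.02 in ruxolitinib libraries (SD, n = 3), with no overlap between any groups. THBS2 to THBS1 was 0.0180 to 0.0187 in proliferating, 0.00847 to 0.00984 in DMSO, 0.0153 to 0.0154 in palbociclib and 0.00962 to 0.0110 in ruxolitinib libraries. DMSO and ruxolitinib overlapped in that ratio, and palbociclib lay between them and proliferating cells. POSTN to SPARC was 0.0170 ± 0.0015 (SD, n = 3) in the proliferating group, 0.0137 ± 0.0005 after DMSO, 0.00145 ± 0.00025 after palbociclib and 0.0124 ± 0.0005 after ruxolitinib. TNC to SPARC went down in steps without overlap, from 0.625 ± 0.090 in proliferating cells to 0.184 ± 0.006 with DMSO, 0.122 ± 0.003 with ruxolitinib and 0.0572 ± 0.0086 with palbociclib. SPARC to THBS1, by contrast, lay between 1.06 and 1.27 in all 12 libraries.

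**Figure D3:**
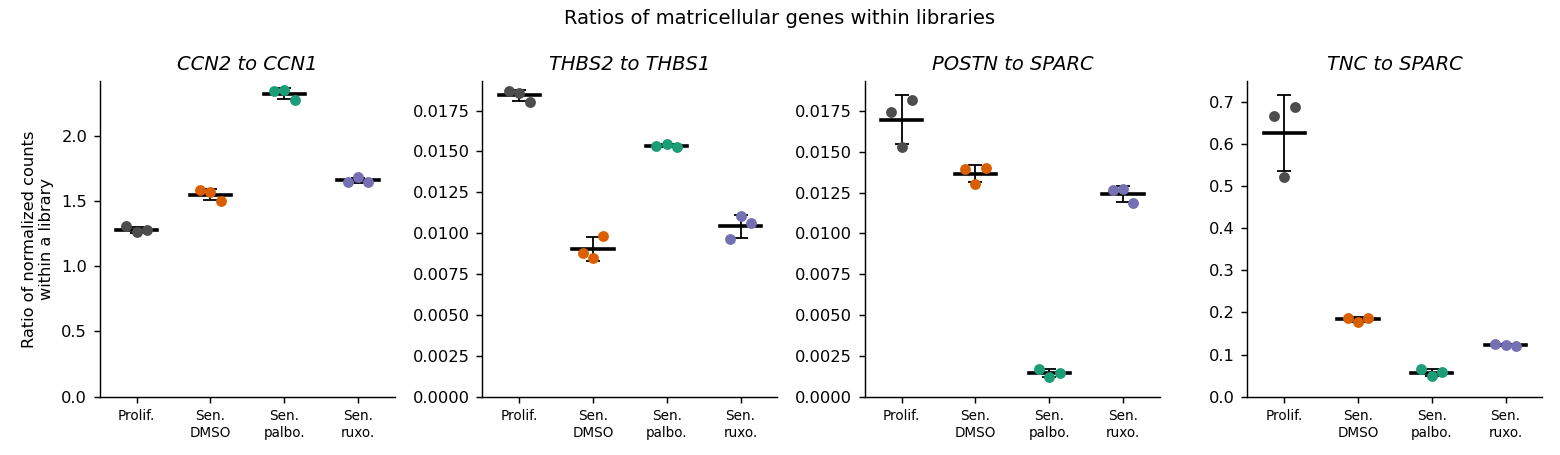
Ratios of normalized counts within a library (y axis from 0, a separate scale per ratio) for CCN2 to CCN1, THBS2 to THBS1, POSTN to SPARC and TNC to SPARC; points are libraries, horizontal lines the mean and whiskers the SD of 3 in each group. The CCN2 to CCN1 ratio is highest with palbociclib at 2.27 to 2.35, and the ratios of POSTN and TNC to SPARC are lowest there.

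Levels of different genes were compared per kb of exon (all exons of the gene in GENCODE v44, which may not be the authors' annotation). In proliferating cells SPARC stood at 15382 ± 420.5 normalized counts per kb (SD, n = 3), CCN2 at 10386 ± 495, THBS1 at 6606 ± 548.3, CCN1 at 5132 ± 219.1 and TNC at 4663 ± 778.7. These ranked 22, 34, 61, 86 and 98 among 16106 genes with a length. CCN4 followed at 363.4 ± 6.54, POSTN at 221.9 ± 25.3, THBS2 at 154.8 ± 11.3 and CCN3 at 20.9 ± 3.45. With palbociclib CCN2 reached 14186 ± 856 and SPARC 20004 ± 366, ranks 31 and 22, while TNC stood at 554.1 ± 89.2 and rank 1271. POSTN per kb went from above THBS2 in proliferating, DMSO and ruxolitinib cells (132.0 ± 1.22 against 59.8 ± 3.53 with DMSO) to below it with palbociclib (24.7 ± 4.47 against 172.1 ± 17.1). The 10 genes together took 1.15% ± 0.05 of the listed reads in proliferating, 0.857% ± 0.014 in DMSO, 1.18% ± 0.04 in palbociclib and 0.895% ± 0.001 in ruxolitinib libraries (SD, n = 3).

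The spread between replicates differed between the groups. The coefficient of variation over the 9 tested members had a median of 2.49% with DMSO and 2.04% with ruxolitinib, and of 7.31% in proliferating and 10.4% in palbociclib libraries. For TNC it was 0.44% with DMSO and 0.89% with ruxolitinib, and 16.7% in proliferating and 16.1% in palbociclib libraries. Library A120 was the lowest of the palbociclib libraries for 6 of the 9 (CCN4, POSTN, TNC, THBS1, THBS2 and SPARC) and the highest for CCN1 and CCN2. Library A126 was the lowest of the proliferating libraries for POSTN, TNC, THBS1, THBS2 and SPARC. Leaving out A120 ended none of the calls between palbociclib and DMSO and added CCN4. Without each library in turn, the difference between palbociclib and DMSO stayed at 1.46 to 1.60 for THBS2, 0.69 to 0.84 for THBS1 and -2.55 to -2.29 for POSTN.

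The members were also compared with each other by the root mean square difference of their centred log2 values over the 12 libraries. CCN2 and SPARC were the nearest pair at 0.08, followed by THBS1 with SPARC at 0.09 and CCN2 with THBS1 at 0.13. POSTN and THBS2 were the farthest apart at 1.61. Among all tested genes, SPARC was nearest to CAV1 (0.05), which builds caveolae, and to LOXL2 (0.05), a lysyl oxidase of collagen, and CCN2 was nearest to CAV1 (0.07) and CTHRC1 (0.08), a secreted collagen-associated protein. THBS1 was nearest to COL8A1 (0.07), a collagen chain, and CRIM1 (0.07), and CCN1 to ACOT9 (0.04) and RALY (0.05). THBS2 was nearest to OXTR (0.15), the oxytocin receptor, and SLC7A5 (0.22), an amino acid transporter. TNC was nearest to TICRR (0.08) and POLA1 (0.10), which act in DNA replication, at 444.2, 94.8, 53.5 and 79.9 normalized counts for TICRR in proliferating, DMSO, palbociclib and ruxolitinib cells. CCN4 was nearest to TEAD4 (0.13), a TEAD factor, and ADAMTS6 (0.14), a matrix protease. CCN3 was nearest to HSD17B2 (0.14) and CD68 (0.17), and POSTN to NPTX1 (0.25) and MYH15 (0.32). The distances are to be read beside each gene's own spread on the same measure, which was 1.21 for POSTN and 0.34 for CCN2. NPTX1 averaged 1508, 643.0, 148.1 and 761.2 normalized counts in proliferating, DMSO, palbociclib and ruxolitinib cells. With 4 groups of 3 libraries, such likeness describes the group means and little else.

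Other genes of the same biology were taken from lists chosen with earlier results of these data known, and are described by counts and medians. The counts are to be read beside the shares called over all tested genes. These were 72.4% after irradiation (33.0% higher and 39.3% lower), 48.3% with palbociclib (26.0% and 22.3%) and 4.52% with ruxolitinib (1.10% and 3.42%). Among relatives of the matricellular genes, 11 of 20 listed were tested, of which 5 rose and 4 fell after irradiation (median log2 fold change 0.02, beside -0.05 over all tested genes). Fibulin 1 (FBLN1), a matrix glycoprotein, fell from 5083 ± 208.2 to 1314 ± 32.5 (-1.95, adjusted p 2.43e-13), while SPP1 (osteopontin, 25.3 normalized counts on average with DMSO), COMP (thrombospondin 5, 19.9) and SMOC1 (1077) rose by 3.66, 2.91 and 1.31. In proliferating cells SPP1 averaged 1.43 and COMP 2.14. Both passed the filter of a mean of at least 10 only through the irradiated groups. Their direction here was therefore set by the filter, and they are among the 5 that rose. With palbociclib 4 rose and 2 fell (median 0.13, all genes 0.02), among them FSTL1, a SPARC relative, at 0.74, COMP at 1.30 and SMOC1 at -0.80. With ruxolitinib limma called 0 of 11, with 2 at an unadjusted p under 0.05, and edgeR and DESeq2 each called 1.

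Direct targets of YAP, TAZ and TEAD other than CCN1 and CCN2 did not move as a block. Of 19 tested, 6 rose and 11 fell after irradiation (median -0.28), and 8 rose and 3 fell with palbociclib (median 0.08), a split that turned to 3 higher and 8 lower at the same total. ANKRD1, a muscle ankyrin repeat protein and sensitive YAP target, rose from 94.7 ± 9.84 to 641.6 ± 47.0 after irradiation (2.75, adjusted p 6.83e-13) and to 1496 ± 136 with palbociclib (1.22, adjusted p 6.05e-08), so it changed in the same direction as CCN2 with palbociclib and in the opposite direction after irradiation. CRIM1 rose by 0.58 and TGFB2 by 0.54 with palbociclib, and NUAK2 fell by 0.74. AXL, a receptor kinase, fell by 1.48 after irradiation. With ruxolitinib 1 of 19 was called, F3 (tissue factor) at -0.17. Of 14 tested genes of the pathway itself, 4 rose and 5 fell after irradiation, of which TEAD4 fell from 491.5 ± 43.4 to 157.3 ± 21.4 (-1.64, adjusted p 1.97e-09) and TEAD2 by 1.10. With palbociclib 2 rose (NF2 at 0.35 and WWTR1, which encodes TAZ, at 0.16) and 2 fell (SAV1 at -0.45 and STK4 at -0.23), and YAP1 was not called at -0.08. The count of 4 was 2 without A118. With ruxolitinib TEAD4 alone was called, at -0.41, and edgeR called 0 of the 14 (2 at an unadjusted p under 0.05) where DESeq2 called 1.

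The SMAD and SRF factors answer to TGF-beta and to actin. Of 15 tested targets, 13 rose with palbociclib (median 0.59, all genes 0.02), where 26.0% of all tested genes were called higher. The 1 that fell was the inhibitory SMAD7, at -0.53. The rises of SRF (0.22) and TGFB1I1 (0.18) were smaller than the shift of the all-gene median at the same total (-0.23). With that scaling 940 of 11242 tested genes were called higher, and the count of this list there is not given here. ACTA2, smooth muscle actin, went from 5076 ± 263 to 12569 ± 1074 (1.31, adjusted p 1.72e-10), and CNN1 rose by 1.02, TPM1 by 0.95 and TAGLN by 0.95. After irradiation 8 of these 15 fell and 3 rose (median -0.17), with ACTA2 at -1.61 and SMAD7 at 0.92. With ruxolitinib 3 fell, ACTG2 (-0.26), SKIL (-0.26) and TGFB1I1 (-0.25). That count was 0 without A117, A118, A122 or A123, 1 without A124 and 6 without A120.

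Receptors bound by these proteins changed in both directions. After irradiation 5 of 15 tested were higher and 6 lower (median -0.06), where 72.4% of all tested genes were called. With palbociclib 5 were higher and 4 lower (median 0.09), where 48.3% were called, or 1 higher and 7 lower at the same total. Syndecan 4 (SDC4), a heparan sulfate receptor, rose from 4921 ± 62.5 to 8786 ± 390.0 with palbociclib (0.84, adjusted p 1.13e-09). The integrin chain ITGA8, part of a tenascin receptor, fell from 281.8 ± 24.5 to 144.6 ± 26.2 (-0.97, adjusted p 1.68e-05) and was also lower with ruxolitinib (-0.62). CD36 rose after irradiation by 3.48 from an average of 3.75 normalized counts, and ITGB3 fell by 1.03. CD36 passed the filter of a mean of at least 10 only through the irradiated groups, so its direction was set by the filter. CD47, the other thrombospondin receptor, was not called after irradiation (0.02) or with palbociclib (0.09). Of 16 matrix partners, such as collagens, elastin and proteoglycans, 11 fell and 4 rose after irradiation (median -0.85), 11 rose with palbociclib (median 0.55) where 0 fell (0 also at an unadjusted p under 0.05 and by edgeR and DESeq2), and 4 rose with ruxolitinib (median 0.13). At the same total the all-gene median moved by -0.23 for palbociclib against DMSO, and the split of these 16 genes there is not given here. Elastin (ELN) had the largest change of the 16 in all 3 comparisons, at -3.51, 1.13 and 0.57. LOX, the lysyl oxidase that crosslinks collagen, rose by 0.51 after irradiation and by 1.10 with palbociclib, and COL1A1 changed by -1.28, 0.70 and 0.48 in the 3 comparisons.

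**Figure D4:**
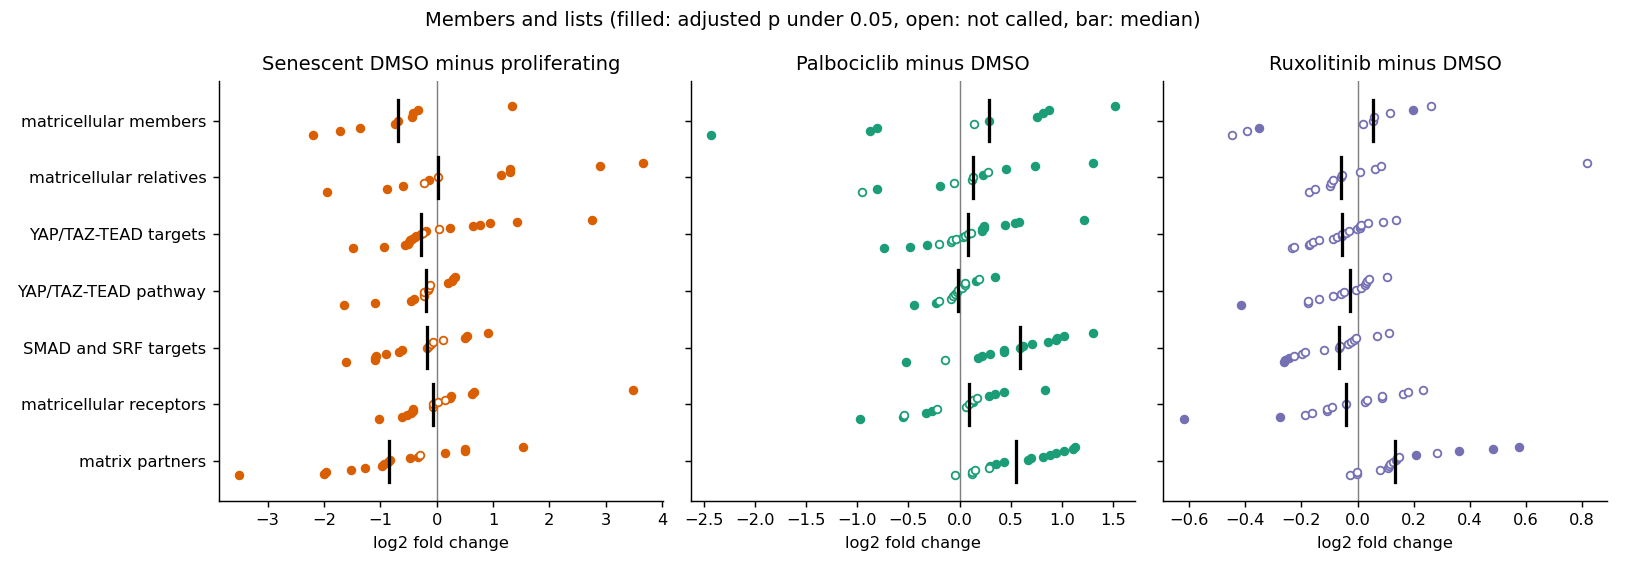
Log2 fold changes (x axis, a separate scale per panel) of the 9 members and of the tested genes of 6 fixed lists, as points stacked by size, with the median as a vertical bar; filled points passed an adjusted p under 0.05. With palbociclib the medians of the SMAD and SRF targets (0.59) and of the matrix partners (0.55) lie above that of the members (0.29), and the YAP/TAZ-TEAD targets centre near 0 (0.08).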

How the data were processed

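Poly(A) RNA from 12 IMR90 libraries was measured. The submitters' processing notes name Trimmomatic 0.38.1, HISAT2 2.2.1, featureCounts 2.0.3, FastQC 0.74, MultiQC, DESeq2 2.11.40.8 and the build hg38, without order or role; annotation and strand setting are not given in the sources used here. The authors deposited 1 table of gene counts divided by a size factor (a normalized signal, as its values show), which ends at Entrez gene 140467. Every value above 0 (160380 of 160380, 100%) was a whole multiple of the worth of 1 read in its column, at a tolerance of 0.01, so reads were recovered. Columns name a group and a library number but no replicate number. No replicate pair agreed within counting noise (0 of 12 by a chi-square test).

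Tests used limma 3.58.1 (R 4.3.3) on log2(value + 1) with 4 group means, moderated variances following the mean, genes with a mean of at least 10, and Benjamini-Hochberg adjustment over 11242 genes for each of 6 comparisons. The limma and edgeR fits were tested on simulated data with the same spread in every group, so the unequal spread seen here was not covered. Alternatives were pseudocounts of 0.1 and 5, no filter or a mean of at least 50, 2 other scalings, limma without a trend, fits restricted to the pair of groups at issue, omission of every library in turn, and edgeR 4.0.16 and DESeq2 1.42.0 on recovered reads. The members and lists were chosen with earlier results of these data known. Genes named are the 10 members, up to 4 called genes of largest change per list and comparison, and the 2 tested genes nearest to each member. Named beyond that were CCN6, CDH5, CD3E, MS4A1, PTPRC, MYH11, CSPG4, NOTCH3, TEK, CD68, YAP1, CD47, SRF and TGFB1I1. Length per gene is the union of exons in GENCODE v44.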

Additional observations from a re-analysis of the deposited data

How the results depend on the processing

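Over all alternatives, 1142 member values kept direction and side of the threshold, 23 gained the call, 23 lost it and 0 called values reversed. The ruxolitinib comparison with DMSO was the least stable. Its 2 called members (limma, 6 at an unadjusted p under 0.05) became 6 when only these groups were fitted (3 higher and 3 lower), and 3 with edgeR, DESeq2, the same total or the same upper quartile (2 lower in each). With no filter they became 0 (limma, 6 at an unadjusted p under 0.05, with 3 called by edgeR and by DESeq2). Leaving out each library gave 0 to 4 called, 0 to 2 higher and 0 to 2 lower. The count was 4 without A120, 1 without A125, A116 or A121, and 0 without A117, A118, A122, A123 or A124. Ruxolitinib list calls moved likewise: F3 among the TEAD targets gave 0 to 3 calls, TEAD4 in the pathway 0 to 1, and the receptors 0 to 3. At the same total, the members lower with ruxolitinib than in proliferating cells went from 8 to 5. The cause of these moves was not tested. Counts of called members in the other 4 comparisons stayed within 1.5 times under every alternative run. No paired analysis was possible because the deposited columns carry library numbers that no label ties to a replicate number. Depth limits CCN5, with 24 reads in 12 libraries. With 3 libraries a group from 1 cell line, effects under about 0.23 on the log2 scale were of the size of the scaling shifts. Some larger effects also lost their call at the same total, such as THBS1 after irradiation (-0.34) and CCN1 with palbociclib (0.29).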
